A study of Homo sapiens with 6 samples.

Results

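The Hippo pathway of endothelial cells was followed through 10 genes in human umbilical vein endothelial cells (HUVECs), primary cells of the umbilical cord vein that are widely used to study vessel growth. The genes were the angiomotins AMOT, AMOTL1 and AMOTL2, the kinases LATS1 and LATS2, the coactivators YAP1 and WWTR1 (which encodes TAZ), the DNA-binding factor TEAD1, and the YAP target genes CCN1 (CYR61) and CCN2 (CTGF). They were taken by name, and were selected on the measured TPM values of this same mimic and control contrast, earlier results of which were known. They were found as 10 of the 45372 Ensembl gene IDs listed for each library. The cells, wild type by the labels, were transfected with a lipid reagent carrying either the microRNA mimic miR-409-3p at 50 nM, in 3 libraries, or a non-specific control RNA, in 3 libraries, and RNA was taken at 48 h. The titles of both groups also describe the cells as non treated, without saying which treatment is meant. The labels call the 3 libraries of a group biological replicates and the design text says that 4 technical replicates were pooled for each RNA, but separate donors are not stated, so the spread given below is that between these cultures.

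As background, the Hippo pathway restrains growth by keeping YAP and TAZ out of the nucleus. The kinases LATS1 and LATS2 phosphorylate both coactivators, which are then held in the cytoplasm or degraded. Unphosphorylated YAP and TAZ bind TEAD factors on DNA and raise transcripts such as CCN1 and CCN2, secreted matrix-associated proteins, as well as AMOTL2 and LATS2, which feed back on the pathway. Angiomotins bind YAP and TAZ at junctions and on actin filaments, and in endothelium the pathway takes part in sprouting and in barrier formation. Transcript levels do not show phosphorylation or location of these proteins.

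The mimic copies miR-409-3p, and its sequence is shown because its seed (bases 2 to 8, in capitals) sets which transcripts it can pair with. The RefSeq mature sequence lies at chr14:101065346-101065367 on the plus strand of GRCh38.p14.
miR-409-3p: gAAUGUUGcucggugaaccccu
In the 3′ untranslated region, full pairing with the seed reads CAACATT (a 7mer-m8), with a following A it is an 8mer, AACATTA is a 7mer-A1 and AACATT a 6mer. Among the 10 genes, LATS1 held an 8mer and TEAD1 held a 7mer-m8 and a 7mer-A1, so 2 of 10 had a site of at least 7 bases, and 22.8% of 11855 tested genes with an annotated 3′ untranslated region had one. A further 6 genes held 6mers alone, and 45.3% of all genes searched held a 6mer or longer. The shares over all genes were not matched for length of the region. AMOTL1 and CCN1 held no match in the longest annotated region searched. The sites of at least 7 bases, and for comparison those of the 2 genes with the largest differences between the groups, are shown with the site in capitals, 5′ to 3′ on the transcript.
LATS1 8mer, chr6:149658343-149658366, minus strand: aattgaatcagtggCAACATTAaa
TEAD1 7mer-m8, chr11:12939705-12939728, plus strand: actccttgctcttaCAACATTtct
TEAD1 7mer-A1, chr11:12941623-12941646, plus strand: agtgttcacacctgtAACATTAgg
AMOTL2 6mer, chr3:134356242-134356265, minus strand: caagtttcctttttaAACATTtgc
AMOTL2 6mer, chr3:134356028-134356051, minus strand: attttttgtgctgtgAACATTttc
CCN2 6mer, chr6:131949113-131949136, minus strand: tcccacccaattcaaAACATTgtg
These coordinates are GRCh38, from GENCODE release 29, and a match of letters is a description and not a measured site of pairing.

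**Figure D1:**
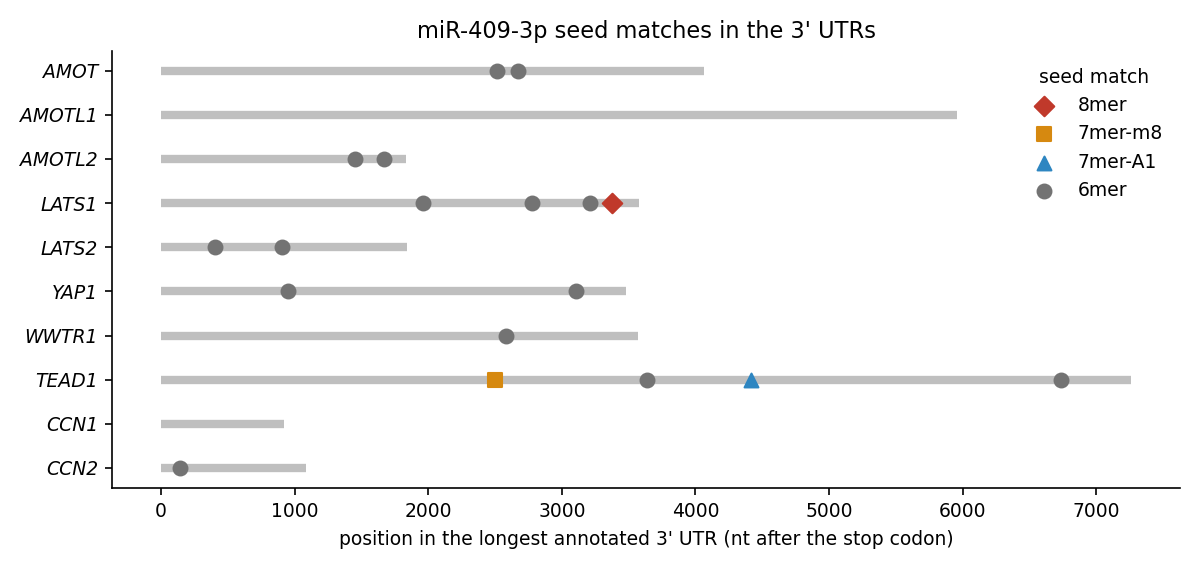
Positions of miR-409-3p seed matches along the longest annotated 3′ untranslated region of each gene (grey bars, in nucleotides after the stop codon), with marker shape and colour giving the class of match. The 18 matches include 1 8mer in LATS1, at nucleotide 3377 of 3576, and in TEAD1 2 7mers, at nucleotides 2497 and 4416 of 7261, while AMOTL1 and CCN1 carry none.

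The 6 libraries held an estimated 29.8 to 35.8 M assigned reads, inferred from the whole-read steps of low values. Summed over 12 endothelial markers, TPM was 6355 to 6516 in mimic libraries and 6053 to 6324 in control libraries, without overlap. CLEC14A was the highest of them. The corresponding sums were 22.6 to 24.9 and 21.2 to 26.6 TPM for 10 fibroblast and smooth muscle markers. They were 1.58 to 2.75 and 1.85 to 2.71 TPM for 6 epithelial markers, of which KRT5, KRT14 and ESRP1 were listed at 0. The 6 leukocyte markers summed to 16.3 to 19.1 and 16.7 to 19.8 TPM, nearly all of it CD68, with PTPRC, CD3E and ITGAM at 0. The 4 lymphatic markers summed to 56.5 to 56.9 TPM in mimic libraries and 51.1 to 54.2 TPM in control libraries. These sums, like the endothelial ones, were higher in mimic libraries without overlap. For sums of other genes the share without overlap was not computed, so nothing is read from this separation. FLT4 was the highest lymphatic marker, at a mean of 32.4 TPM, and PDPN was at 0. The part of lymphatic cells in the results below was not tested. In bulk RNA, fewer cells of a type and less RNA per cell cannot be told apart.

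The 10 genes spanned a wide range of levels, given here in TPM, a measure scaled by gene length so that genes can be set side by side. CCN2 led with a mean of 3257 TPM over the 6 libraries (range 2679 to 3580.15) and ranked 25 among 13680 tested genes. CCN1 followed at 989 TPM (913 to 1085), and both secreted targets thus lay above every intracellular component. WWTR1 averaged 244 TPM (220 to 281), AMOTL2 107 TPM (85.1 to 127), YAP1 80.2 TPM (72.1 to 90.8) and LATS2 68.0 TPM (60.8 to 71.3). AMOTL1 averaged 40.6 TPM (37.5 to 43.0), LATS1 22.3 TPM (19.8 to 24.5), TEAD1 14.1 TPM (12.5 to 15.5) and AMOT 1.82 TPM (1.51 to 2.25). Neighbours in this order had separate ranges over the 6 libraries, with the exception of AMOTL2 and YAP1, whose ranges overlapped although AMOTL2 was the higher of the pair in 6 of 6 libraries. The low level of AMOT rested on an estimated 108 to 170 reads per library, against at least 972 for each of the other genes, so AMOT is the least precise.

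**Figure D2:**
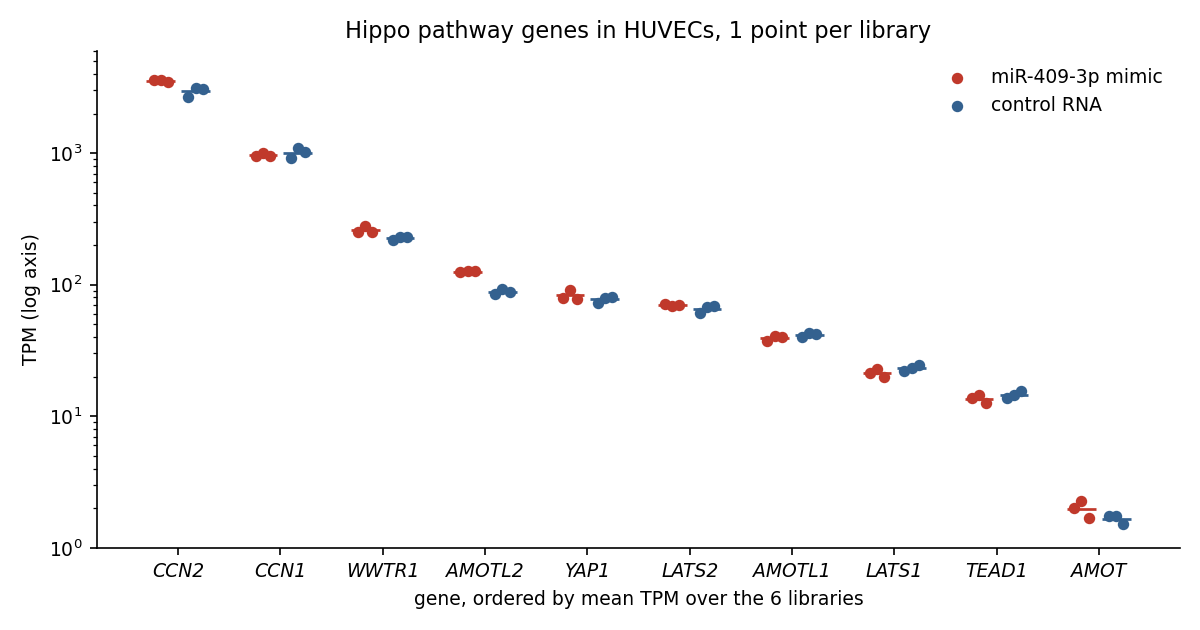
TPM of each gene on a log axis, 1 point per library with the group mean as a line, mimic libraries on the left and control libraries on the right of each pair. CCN2 is the highest at 2679 to 3580.15 TPM and AMOT the lowest at 1.51 to 2.25 TPM, and the 3 mimic points of AMOTL2 stand clear of its 3 control points.

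The next question was which of these transcripts differed when the microRNA was supplied. The 10 genes were chosen with results of this contrast known, so their differences are given as a description. The limma fit over all genes, given below, is no independent test of them. For AMOTL2, WWTR1, CCN2 and LATS2, the lowest mimic value exceeded the highest control value. The other 6 overlapped between the groups, and none was lower in every mimic library. Being higher without overlap held for 4 of 10 genes here and for 5.16% of all 13680 tested genes. In the fit across all genes by limma, 1 of the 10, AMOTL2, passed the Benjamini-Hochberg threshold of 0.05 and was higher. Over all tested genes 0.431% passed, 0.132% higher and 0.3% lower. The AMOTL2 call was not made without control library 3 (difference 0.50), without mimic library 1 (0.51) or with replicate number as a block (0.50). It was made in 10 of 13 alternative settings. As the same contrast was known when the genes were chosen, nothing is read from the call or from these shares. Differences are in log2(TPM + 1), mimic minus control, with a standard error (SE), and understate changes of low genes. The median was 0.10 over the 10 genes and -0.02 over all tested genes.

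**Figure D3:**
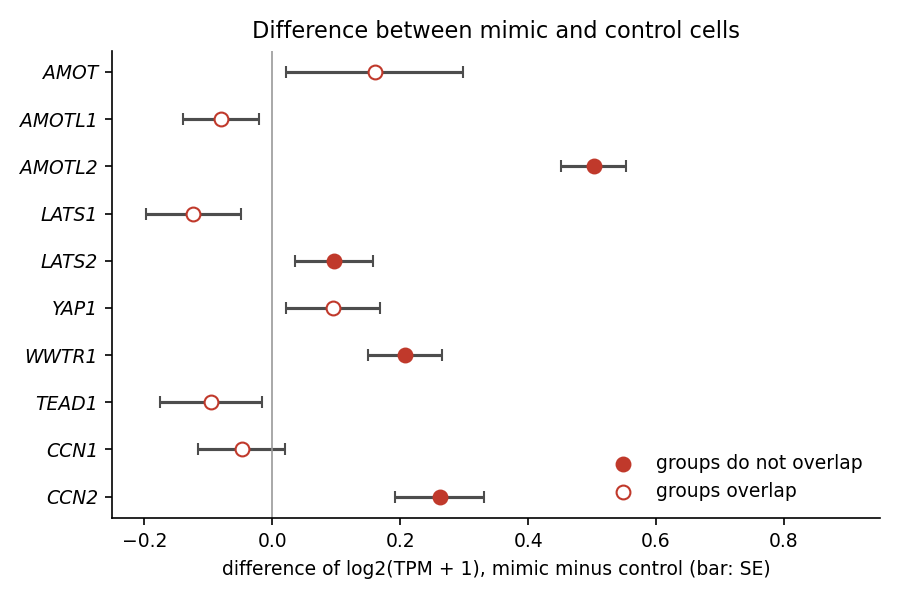
Difference of log2(TPM + 1), mimic minus control, for each gene with its standard error (bars), filled points marking genes whose 3 mimic and 3 control values do not overlap. AMOTL2 stands at 0.50, followed by CCN2 at 0.26 and WWTR1 at 0.21, and the lowest is LATS1 at -0.12.

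Among the angiomotins, AMOTL2 measured 125, 126 and 127 TPM in mimic libraries 1 to 3, against 85.1, 92.5 and 88.4 TPM in control libraries 1 to 3. All 3 mimic values lay within a narrow band, and the lowest of them stood 32.6 TPM above the highest control value. The means were 126 ± 0.789 TPM in mimic cells and 88.7 ± 3.68 TPM in control cells (SD, n = 3 each), 1.42 times the control level, with a log2 difference of 0.50 (SE 0.05). AMOTL2 encodes a scaffold that links VE-cadherin to actin and binds YAP. The gene lies on the minus strand at chr3:134355874-134375479.

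AMOTL1, the closely related tight junction protein gene at chr11:94706431-94876753 on the plus strand, had 37.5, 41.0 and 39.8 TPM in mimic libraries and 40.1, 43.0 and 42.0 TPM in control libraries. The groups overlapped, with 2 of 3 mimic values below all controls, and the log2 difference was -0.08 (SE 0.06), or -0.05 without mimic library 1. AMOT, the founding member, named for binding angiostatin, had 2.01, 2.25 and 1.68 TPM in mimic libraries and 1.75, 1.73 and 1.51 TPM in control libraries. It lies on the minus strand at chrX:112774503-112840815, its groups overlapped, and its log2 difference of 0.16 had an SE of 0.14 and was 0.10 without mimic library 2. Within the family, AMOTL2 made up 76.0%, 74.5% and 75.3% of angiomotin TPM in mimic libraries, against 67.0%, 67.4% and 67.0% in control libraries. AMOTL1 made up 23.5% ± 0.709 in mimic cells and 31.6% ± 0.259 in control cells (SD, n = 3 each), and AMOT at most 1.37% in any library.

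The LATS kinases are the last step of the kinase chain. LATS2, at chr13:20973032-21061547 on the minus strand and itself a YAP target, measured 71.3, 69.4 and 70.2 TPM in mimic libraries and 60.8, 68.0 and 68.7 TPM in control libraries. The groups were separated by 0.731 TPM, less than the spread among the controls, and the log2 difference was 0.10 (SE 0.06), falling to 0.04 without control library 1. LATS1, at chr6:149658153-149718256 on the minus strand and the holder of the 8mer shown above, measured 21.2, 22.9 and 19.8 TPM in mimic libraries and 22.0, 23.3 and 24.5 TPM in control libraries. Of the mimic values 2 lay below all controls and 1 among them, with a log2 difference of -0.12 (SE 0.07), or -0.07 without mimic library 3 and -0.08 with quantile scaling. The LATS2 to LATS1 ratio was 3.31 ± 0.266 in mimic cells and 2.83 ± 0.0810 in control cells (SD, n = 3 each), and its groups did not overlap.

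The coactivators YAP and TAZ carry no DNA-binding domain of their own. WWTR1, which encodes TAZ and lies at chr3:149517235-149736714 on the minus strand, had 250.2, 281 and 254 TPM in mimic libraries, against 220, 230.1 and 229 TPM in control libraries. Every mimic value was above every control value by at least 20.1 TPM, the ratio of means was 1.16, and the log2 difference was 0.21 (SE 0.06). YAP1, at chr11:102110461-102233423 on the plus strand, had 79.7, 90.8 and 78.4 TPM in mimic libraries and 72.1, 79.3 and 81.3 TPM in control libraries. These overlapped, with mimic library 2 the highest. The log2 difference was 0.10 (SE 0.07), or 0.03 without mimic library 2 and 0.04 without control library 1. WWTR1 exceeded YAP1 in each library, by a ratio of 3.16 ± 0.0714 in mimic cells and 2.92 ± 0.117 in control cells (SD, n = 3 each).

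TEAD factors bring YAP and TAZ to DNA. TEAD1, at chr11:12674591-12944483 on the plus strand, measured 13.7, 14.5 and 12.5 TPM in mimic libraries and 13.7, 14.5 and 15.5 TPM in control libraries. The groups overlapped, and the log2 difference was -0.10 (SE 0.08). It was -0.04 without mimic library 3, and -0.05 without control library 3 or with quantile scaling. TEAD1 was not the main TEAD transcript of these cells. It made up 7.79% ± 0.846 of summed TEAD TPM in mimic cells and 8.30% ± 0.386 in control cells, while TEAD2 made up 58.4% ± 0.921 and 56.8% ± 0.812 and TEAD4 33.1% ± 0.826 and 33.9% ± 0.430 in the same order of groups (SD, n = 3 each).

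Of the secreted targets, CCN2, an extracellular matricellular protein long used as a readout of YAP activity, had 3580.15, 3574 and 3489 TPM in mimic libraries, against 2679, 3148 and 3069 TPM in control libraries. The 3 mimic values lay close together and 340.1 TPM or more above the controls, of which library 1 was the lowest. The means were 3548 ± 51.2 TPM in mimic cells and 2966 ± 251 TPM in control cells (SD, n = 3 each), a ratio of 1.20 and a log2 difference of 0.26 (SE 0.07), or 0.19 without control library 1. CCN1, a related matricellular protein and likewise a YAP target, had 959, 999 and 955 TPM in mimic libraries and 913, 1085 and 1022 TPM in control libraries. The mimic values fell inside the range of the controls, and the log2 difference was -0.05 (SE 0.07). It was 0.0075 without control library 2, -0.12 without control library 1 and -0.03 with median-of-ratios scaling. The ratio of CCN2 to CCN1 within a library was 3.73, 3.58 and 3.65 in mimic libraries and 2.93, 2.90 and 3.00 in control libraries. These groups did not overlap. For this ratio and those above no share over other gene pairs was computed, so nothing is read from the separation.

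**Figure D4:**
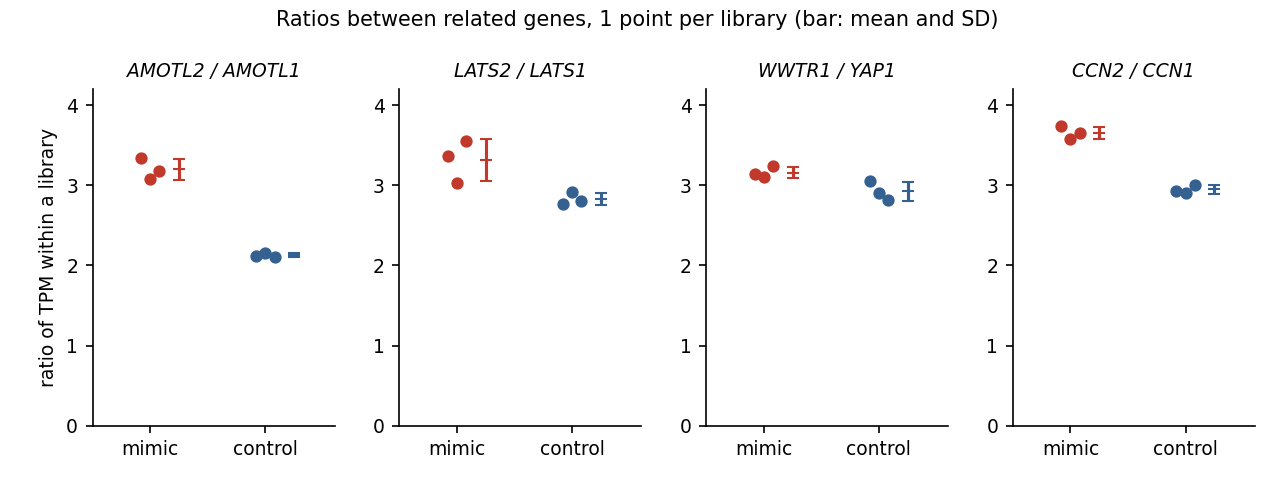
Ratio of TPM between related genes within each library (points), with the mean and SD beside them, mimic on the left and control on the right of each panel. The AMOTL2 to AMOTL1 ratio is 3.08 to 3.34 in mimic libraries and 2.10 to 2.15 in control libraries. The CCN2 to CCN1 ratio is 3.58 to 3.73 and 2.90 to 3.00. The groups also do not overlap for LATS2 over LATS1 (lowest mimic 3.03, highest control 2.92) or WWTR1 over YAP1 (3.10 and 3.05). Ratios of other gene pairs were not computed as a background, so nothing is read from the lack of overlap.

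Control library 1 was the lowest of the 3 controls for 9 of the 10 genes. Its median-of-ratios factor, which measures how its TPM values sit against the other libraries, was 0.975, against 1.03 and 1.02 for control libraries 2 and 3 and 0.986, 1.01 and 0.985 for mimic libraries 1 to 3. After division by these factors WWTR1 measured 254, 279 and 257 in mimic libraries and 225, 224 and 224 in control libraries. CCN2 then measured 3630, 3546 and 3540.24 in mimic libraries and 2749, 3063 and 3001 in control libraries. AMOTL2, LATS2, WWTR1 and CCN2 stayed without overlap, and on this scale YAP1 (higher in mimic) and AMOTL1 (lower in mimic) also had no overlap. The margins of these last genes were thin. For YAP1 the lowest mimic value was 79.52 and the highest control value 79.45. For AMOTL1 the highest mimic value was 40.6 and the lowest control value 41.1. The share of all tested genes without overlap on this scale was not computed, so nothing is read from it.

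CCN2 (chr6:131948176-131951373, minus strand) overlaps an antisense gene, ENSG00000227220, which averaged 19.3 TPM, and the use of strand in counting is not given in the sources used here. CCN1 (chr1:85580761-85583962, plus strand) overlaps no other annotated gene. WWTR1 overlaps the antisense gene WWTR1-AS1 at a mean of 1.51 TPM and YAP1 one (ENSG00000254422) at 1.08 TPM. The remaining overlapping genes with a value averaged under 1 TPM, and the pseudogene RPL39P5 inside AMOTL2 was not analysed here.

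The promoters of the 2 genes with the largest differences are shown because AMOTL2 and CCN2 are both known YAP targets and were both higher in each mimic library. The motif searched was GGAATG on either strand (CATTCC on the other), the core of the TEAD recognition sequence, in the RefSeq windows from 250 bases before to 50 bases after the start that RefSeq gives each gene in GRCh38.p14, with matches in capitals. That start can differ from the outermost GENCODE boundary printed above, and the windows of AMOTL1, LATS1 and WWTR1 lie inside those boundaries.
CCN2, chr6:131951323-131951622, minus strand: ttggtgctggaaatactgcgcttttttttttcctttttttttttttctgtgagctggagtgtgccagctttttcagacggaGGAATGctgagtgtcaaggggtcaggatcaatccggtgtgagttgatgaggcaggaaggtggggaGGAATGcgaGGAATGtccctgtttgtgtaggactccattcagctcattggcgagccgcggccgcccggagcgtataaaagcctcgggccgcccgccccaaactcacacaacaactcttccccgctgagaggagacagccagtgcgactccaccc
AMOTL2, chr3:134375368-134375667, minus strand: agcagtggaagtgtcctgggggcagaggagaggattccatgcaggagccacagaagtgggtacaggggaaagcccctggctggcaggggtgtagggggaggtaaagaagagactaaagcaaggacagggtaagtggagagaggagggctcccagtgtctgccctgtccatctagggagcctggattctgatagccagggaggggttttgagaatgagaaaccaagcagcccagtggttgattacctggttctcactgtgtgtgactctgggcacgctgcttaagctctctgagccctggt
The CCN2 window held 3 copies, beginning 169, 104 and 95 bases before the start, all on the strand of the gene. Of 35114 windows, 1.37% held 2 or more. CCN2 was shown as a known YAP target, so this share is a description only. The part of these copies in the CCN2 difference was not tested. The AMOTL2 window held none, which says only that these letters are not in this window. YAP1 and LATS2 held 1 copy each, so 3 of 8 genes with a window at the RefSeq start had the motif, beside 14.0% of all windows. Other starts of these genes were not searched.

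The other genes of the pathway came from 7 lists holding 122 genes beside the 10, of which 110 reached the filter of 1 TPM in at least 3 libraries. By limma with Benjamini-Hochberg adjustment over all tested genes 1 of them rose, GADD45A, 0 fell and 109 did not pass. The share past the threshold was 0.909%, beside 0.431% of all tested genes. Before adjustment, limma gave p under 0.05 for 6 higher and 7 lower genes, 11.8% of those tested. The same held for 10.7% of all tested genes, 3.05% higher and 7.64% lower. The median log2 difference of the listed genes was -0.0093, and that of all tested genes was -0.02. The lists too were chosen with earlier results of these data known, so nothing is read from these shares.

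The target signature was a published set of 22 genes induced by YAP and TAZ in tumours, 4 of which are AMOTL2, LATS2, CCN1 and CCN2. Of the other 18, 17 were tested, 1 rose, 0 fell and 16 did not pass, with 12 differences above and 5 below 0 and a median of 0.04. GADD45A, a stress-induced growth arrest gene, had 282, 276 and 266 TPM in mimic libraries and 194, 194 and 194 TPM in control libraries (log2 difference 0.50, SE 0.05, limma with Benjamini-Hochberg, adjusted p = 0.00618). In 13 of 13 other settings GADD45A stayed past the limma threshold, with an adjusted p of 0.00236 to 0.0498. As the list was chosen with earlier results of these data known, nothing is read from this call. F3, which encodes tissue factor and was singled out after its values were seen, had 4.68, 5.26 and 3.67 TPM in mimic libraries and 2.05, 2.25 and 2.80 TPM in control libraries. Its groups did not overlap but it did not pass (log2 difference 0.71, SE 0.15, limma adjusted p = 0.0868, and 0.0601 to 0.309 in other settings).

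ANKRD1, a YAP-induced ankyrin repeat gene and the most abundant of the other listed targets, overlapped between the groups and did not pass. It had 690, 670.0 and 589 TPM in mimic libraries and 670.4, 738 and 809 TPM in control libraries, with a log2 difference of -0.18 (SE 0.08). CRIM1, a transmembrane regulator of growth factors, measured 474 ± 34.0 TPM in mimic cells and 462 ± 45.0 TPM in control cells (SD, n = 3 each). Of 13 other signature genes with a promoter window, 5 held the motif, beside 14.0% of all windows. FOXF2, at 0 TPM in every library, was among the 5. The list was chosen with earlier results known, so nothing is read from this share.

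**Figure D5:**
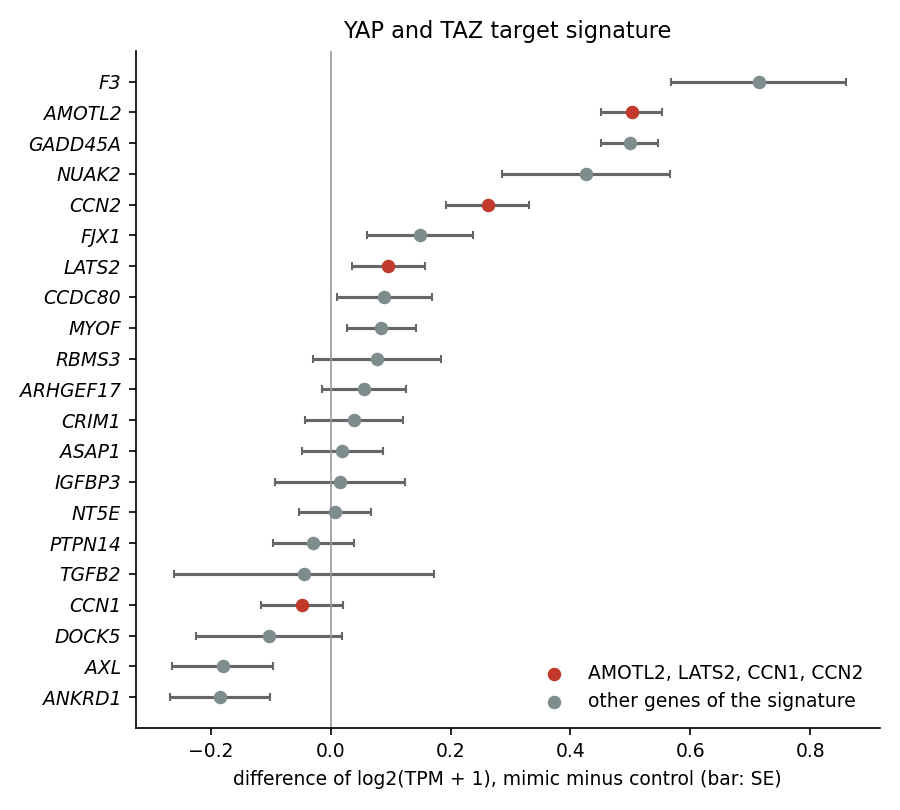
Difference of log2(TPM + 1), mimic minus control, with its standard error for the tested genes of the YAP and TAZ target signature, with AMOTL2, LATS2, CCN1 and CCN2 in red. The values run from -0.18 (ANKRD1) to 0.71 (F3), and targets of the same pathway lie on both sides of 0.

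Upstream, 0 of 33 tested Hippo kinases, scaffolds and regulators passed limma, and before adjustment 2 were higher and 6 lower with p under 0.05, with a median log2 difference of -0.03. The most abundant were MAP4K4, a kinase that can act on LATS, at 251 ± 9.15 TPM in mimic cells and 237 ± 5.68 TPM in control cells. MOB1A, the LATS coactivator, had 117 ± 11.1 and 119 ± 4.91 TPM, and RASSF2, a scaffold that binds the MST kinases, had 96.5 ± 4.42 and 97.2 ± 3.10 TPM, mimic before control (SD, n = 3 each). The 6 lower genes, named after their values were seen, were RASSF1 with a log2 difference of -0.30 (SE 0.07), WTIP with -0.29 (SE 0.12), AJUBA with -0.24 (SE 0.08), STK38 with -0.23 (SE 0.09), LIMD1 with -0.20 (SE 0.08) and TNIK with -0.15 (SE 0.06). The 2 higher genes, named in the same way, were NUAK2 with 0.43 (SE 0.14) and FAT4 with 0.20 (SE 0.08). Over all tested genes, 7.64% were lower and 3.05% higher with an unadjusted limma p under 0.05. Of the 33 tested genes, 5 were lower and 3 higher without overlap between the groups, and over all tested genes these shares were 10.5% and 5.16%.

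The STRIPAK complex, a phosphatase assembly that counters the Hippo kinases, gave 0 of 18 genes past the threshold, and before adjustment 1 was higher and 0 lower with a limma p under 0.05. Its catalytic subunit PPP2CA measured 141 ± 4.70 TPM in mimic cells and 138 ± 9.73 TPM in control cells (SD, n = 3 each). PPP2CB had 120 ± 6.90 and 117 ± 10.1 TPM and the scaffold PPP2R1A 99.9 ± 6.89 and 98.1 ± 1.16 TPM, mimic before control. None of the 5 tested TEAD and VGLL genes passed limma, and before adjustment 1, VGLL4, was higher and 0 lower with p under 0.05. Beside this list and STRIPAK, the shares of all tested genes at that p were 3.05% higher and 7.64% lower. VGLL4, a TEAD cofactor that competes with YAP, had 49.2 ± 3.37 TPM in mimic cells and 44.3 ± 1.27 TPM in control cells. TEAD2 had 102 ± 4.81 and 99.8 ± 3.79 TPM and TEAD4 57.9 ± 2.96 and 59.6 ± 2.89 TPM in mimic and control cells.

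Of the other CCN genes, CCN3 alone was tested and did not pass, at 2.44 ± 0.151 TPM in mimic cells and 1.76 ± 0.399 TPM in control cells (SD, n = 3 each). CCN5 averaged 0.148 and 0.189 TPM in mimic and control cells, and CCN4 and CCN6 were listed at 0 in every library. CCN1 and CCN2 also respond to serum response factor (SRF) and actin. Actin cytoskeleton targets of that factor were therefore listed, together with SRF, MRTFA and MRTFB themselves. The part of this factor in the CCN1 and CCN2 values was not tested. Of 21 tested, 0 passed limma and 0 had an unadjusted p under 0.05, with a median of -0.0094. ACTB measured 6491 ± 398 TPM in mimic cells and 6474 ± 226 TPM in control cells, ACTG1 6653 ± 227 and 6505 ± 239 TPM, and CFL1, an actin severing protein gene, 1081 ± 67.8 and 1071 ± 38.3 TPM (SD, n = 3 each). Angiomotin partners at junctions gave 0 of 17 past the limma threshold, and before adjustment 0 were higher and 1, RNF146, was lower with p under 0.05. Beside this list and the SRF list, the shares of all tested genes at that p were 3.05% higher and 7.64% lower. Among the junction partners CDH5, which encodes VE-cadherin, had 816 ± 10.7 TPM in mimic cells and 831 ± 43.5 TPM in control cells. TJP1, the tight junction scaffold, had 96.2 ± 4.71 and 99.0 ± 4.58 TPM, and TNKS2, a tankyrase that marks angiomotins for degradation, 66.9 ± 2.43 and 67.0 ± 2.78 TPM in the same order.

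Over the 6 libraries, the tested genes whose log2(TPM + 1) followed CCN2, the most abundant of the 10, most closely were NSD1 (Pearson r = 0.993), MLLT3 (0.988) and TIMP2 (0.984). With 6 libraries that share the difference between the groups, 202 genes exceeded an r of 0.9, so this is a description of these libraries only.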

How the data were processed

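The authors deposited TPM, a length-scaled measure of transcript abundance, per Ensembl gene for each library, per the file headers. Per the labels' protocols, mRNA-enriched libraries were sequenced as single reads. Per the submitters' processing notes, the genome builds were hg38 and GRCh38.p13. Not given in the sources used here were aligner, counter, annotation and use of strand. Symbols were found for 45102 of 45372 IDs. The 13680 genes that reached 1 TPM in 3 or more libraries were fitted with limma 3.58.1 in R 4.3.3 on log2(TPM + 1), with group as the only term and a trended prior, with Benjamini-Hochberg adjustment of the p-values (threshold 0.05). In simulated data, the fit recovered 69.9% of log2 changes of 0.5 and 95.7% of changes of 1, and 4.55% of its calls were false. Smaller changes and changes of low genes were not simulated, so a gene that did not pass may still differ. Whole-read steps of TPM times GENCODE 29 exon length gave the estimated reads. For values from 1 to 10 reads, 75.9% to 76.8% were whole within 0.02 reads. Those reads carry no molecular identifiers. The 10 genes and the lists were chosen with earlier results of these data known. Named were the 10 genes, list genes past the threshold, the 3 most abundant of each list, and the 3 genes most like the most abundant of the 10. F3, RNF146 and the Hippo regulators with an unadjusted p under 0.05 fall outside that rule and were named after their values were seen. Figures were drawn with matplotlib 3.10.9. The alternatives are given in the closing section.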

Additional observations from a re-analysis of the deposited data

How the results depend on the processing

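Over 129 combinations of the 10 genes and the alternative settings, every log2 difference moved by less than 1 SD between replicates. In 1 of them (CCN1 without control library 2, 0.0075) the sign changed. The filters, the untrended prior and the replicate number as a block cannot change a log2 difference, so their combinations only repeat the reported value. The order of levels was the same without each library and with median-of-ratios scaling. AMOT and F3 have no value with a filter of 5 TPM. Of the listed genes 1 was higher and 0 lower in each setting. Over all tested genes, the 18 higher and 41 lower became 36 and 79 when 5 TPM was required, 6 and 5 unfiltered, and 10 and 10 with an untrended prior. Scaling by median-of-ratios gave 33 higher genes, and quantile scaling gave 34. Leaving out single libraries gave 6 to 22 higher and 6 to 27 lower genes, the lower count changing by over 1.5 times with each library left out and the higher count with control libraries 1, 2 and 3 and mimic library 1. The cause was not tested. With the replicate number as a block the counts were 9 and 5. Same-numbered libraries deviated from their group means with an r of 0.03, -0.09 and -0.11, and not every library correlated best with its own number. Deviations within a group cancel, so these r values are tied to each other and cannot show whether same-numbered libraries share more than a number. Counting 6mers, 8 of the 10 genes held a seed match, against 2 with longer sites. Over all genes searched these shares were 45.3% and 22.8%, not matched for length of the region, so nothing is read from them. AMOT, at an estimated 108 to 170 reads per library, is limited by depth.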
